A study of Rattus norvegicus with 9 samples.

Results

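The neurons of the colon wall signal to muscle, mucosa and each other with peptides, and the transcripts of 8 such peptide precursors and of 1 neuronal calcium-binding protein were followed here in rats fed 3 dietary proteins. The genes are Vip, Npy, Tac1, Gal, Penk, Cartpt, Calca and Grp, which encode neuropeptides, and Calb2, which encodes calretinin. They were taken by name. Every probe set of the rat array whose only gene symbol in the platform annotation was one of these 9 names was included, which gave 10 probe sets of 8799 for 8 of the 9 genes. No probe set carried Grp as its only symbol. The whole table holds 4737 different genes by this annotation.

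Enteric neurons lie in the myenteric plexus between the muscle layers and in the submucosal plexus. Their neuropeptides are cut from larger precursors in dense core vesicles and act through G protein-coupled receptors on muscle, epithelium, vessels and other neurons. VIP relaxes gut muscle and drives secretion, tachykinins contract muscle, enkephalins damp transmitter release, and calretinin marks large groups of enteric neurons, so these transcripts are widely used to tell classes of enteric neurons apart.

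The diets contained whey protein hydrolysate (WPH), soy protein isolate (SPI) or casein (CAS), and CAS was the control diet. All rats were male Sprague Dawley animals fed their diet for life, and all of them, CAS rats included, received the colon carcinogen azoxymethane when 90 days old, as 2 doses of 15 mg/kg. Non-tumor tissue of the proximal colon was collected 40 weeks later, when some rats of each diet had colon tumors. Equal amounts of RNA from 7 rats were combined into 1 pool per diet. From each pool 3 labelled targets were made in parallel and read on 3 arrays, so the spread within a diet is technical. Each p-value compares the pools of 2 diets, 1 pool each, and not groups of rats. Values are MAS 5.0 signals on a linear scale, and a signal of 100 was taken as the lower limit of a readable level. Differences were tested on the log2 scale with limma across 5606 probe sets that averaged at least 100 in at least 1 diet, and a transcript was called higher or lower at a Benjamini-Hochberg adjusted p under 0.05. Of the members, 8 probe sets for 7 genes were tested, and both Calca probe sets were too dim.

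The tissue was whole colon wall, and the mix of RNA differed between the pools. Of 30 tested genes of neuronal cytoskeleton and synapse, 27 were higher in WPH than in CAS and none was lower, and their summed signal was 36746 to 38319 with WPH, 22535 to 23838 with SPI and 15417 to 15724 with CAS. The summed signal of the smooth muscle list ran the same way, at 243777 to 275541 with WPH, 184004 to 187492 with SPI and 130745 to 132207 with CAS. That of the epithelial list ran the other way, at 32600 to 33826 with WPH, 66232 to 67511 with SPI and 112989 to 117599 with CAS. The ratio of the 3′ to the 5′ actin probe sets, a sign of how complete the labelled RNA is, was 2.53 to 3.50 with WPH, 2.14 to 2.36 with SPI and 1.83 to 1.88 with CAS. The arrays were grouped into 3 fluidics rounds by gaps between the time stamps in their instrument settings, so the rounds are inferred. The first held all CAS arrays and WPH replicate 2. The second held WPH replicates 1 and 3 and SPI replicates 1 and 2, and the third held SPI replicate 3 alone. The part of tissue mix, RNA completeness and fluidics round in the results below was not tested beyond the values given. In bulk tissue, fewer neurons and less RNA per neuron cannot be told apart.

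Sequences before annotated start sites are shown because transcription of several peptide precursor genes, Vip and Cartpt among them, is known from rodents and cell lines to respond to cyclic AMP. The cyclic AMP response element is read by the factor CREB, and its full form is TGACGTCA. The 250 bases before the start site were searched on both strands in the RefSeq promoter windows of the GRCr8 rat assembly, which held 7 of the 9 members. For 4 of these genes the annotated start lies within a longer gene model, which covers 250 of the 250 bases for Cartpt, 248 for Vip, 239 for Tac1 and 59 for Calca, so that these windows are wholly or partly inside the gene. The short form, TGACG or its complement CGTCA, was in 6 of these 7 windows, against 18.2% of 33465 rat promoters of the same length. The full element was in 1 of them, that of Cartpt, against 1.59% of all promoters, and since it holds the short form on each strand, Cartpt counts under both motifs. The stretches below run 5′ to 3′ on the strand of the gene, and the capitals mark the short form or, for Cartpt, the full element.
Vip, chr1:44470371-44470400, plus strand: ggatcaccactgTGACGtctttcgaggagc
Tac1, chr4:36645365-36645394, plus strand: tccctaaaattgCGTCAtttcgaacccaat
Gal, chr1:210084618-210084647, minus strand: gcgctgagcgggTGACGcggcagctcccac
Cartpt, chr2:32991360-32991389, minus strand: cccggcgggcatTGACGTCAaacggcagcg
Calca, chr1:178317624-178317653, minus strand: gaagcaccgaggTGACGcaatctgtctggg
Grp, chr18:61658557-61658586, plus strand: gctatagggagaCGTCAgtgtgctcaggtc
The first capital lay 97 bases before the annotated start in Vip, 206 in Tac1, 63 in Gal, 142 in Cartpt, 112 in Calca and 86 in Grp. In Vip, Tac1, Cartpt and Calca this is the distance to a start internal to the longer model, and the full element of Cartpt lies inside that model. The Npy window, chr4:80211861-80212110 on the plus strand, held neither form. A TATA motif, TATAAA or TTTATA on either strand, was in 3 of the 7 windows, those of Vip, Gal and Grp, against 12.9% of all promoters. These are matches of letters and not sites shown to be bound.

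Among the inhibitory peptides, Vip encodes vasoactive intestinal peptide, the relaxant and secretagogue of inhibitory motor neurons and secretomotor neurons. Its signals (probe set X02341cds_at) were 237.5, 208.6 and 185.9 on the WPH arrays, 246.8, 188.7 and 252.4 on the SPI arrays, and 125.2, 109.4 and 124.6 on the CAS arrays. Every WPH and SPI array lay above every CAS array, and the WPH and SPI arrays overlapped. Mean signals were 210.7 ± 25.9 with WPH, 229.3 ± 35.3 with SPI and 119.7 ± 8.95 with CAS (SD, n = 3 each). Vip was thus 1.76-fold higher in WPH than in CAS (log2 change 0.81, SE 0.18, limma adjusted p = 0.0041) and 1.92-fold higher in SPI than in CAS (log2 change 0.93, limma adjusted p = 0.0036). WPH and SPI did not differ beyond their spread, with a log2 difference of -0.12 (95% interval -0.52 to 0.28, limma adjusted p = 0.70). The CAS arrays shared a fluidics round with WPH replicate 2 alone, and that 1 array was 0.80 above CAS on the log2 scale (limma adjusted p = 0.059 with the round as a block), with the lone array assumed to vary like the others.

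Gal encodes galanin, which slows transmitter release from enteric neurons and is found in many VIP neurons. Gal signals (J03624_at) were 638.8, 775.2 and 588.8 with WPH, 765.6, 922.4 and 852.5 with SPI, and 532.1, 440.4 and 605.1 with CAS. SPI was the highest diet and did not overlap CAS, whereas the WPH arrays overlapped both other diets. Gal averaged 846.8 ± 78.6 in SPI and 525.9 ± 82.5 in CAS (SD, n = 3 each), a 1.61-fold difference (log2 change 0.70, limma adjusted p = 0.0062). In WPH it averaged 667.6 ± 96.5, and the log2 change against CAS was 0.35 (95% interval 0.02 to 0.67, limma adjusted p = 0.089). Against SPI the WPH difference was -0.35 (95% interval -0.68 to -0.02, limma adjusted p = 0.13). Gal was the member in which WPH was nearest to CAS by log2 change.

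Npy encodes neuropeptide Y, which is made by secretomotor and inhibitory enteric neurons and by the sympathetic fibres whose cell bodies lie outside the gut. Npy signals (M15880_at) were 292.3, 330 and 348.5 with WPH, 231, 255.1 and 212.1 with SPI, and 162.7, 132.7 and 138 with CAS. The 3 diets formed a clear order, WPH above SPI above CAS, with no overlap between any of them. Mean signals were 323.6 ± 28.6 with WPH, 232.7 ± 21.6 with SPI and 144.5 ± 16.01 with CAS (SD, n = 3 each). Npy was 2.24-fold higher in WPH than in CAS (log2 change 1.17, SE 0.16, limma adjusted p = 0.00012) and 1.61-fold higher in SPI than in CAS (log2 change 0.69, limma adjusted p = 0.0083). The step between WPH and SPI, 0.48 on the log2 scale (95% interval 0.13 to 0.82), just missed the threshold (limma adjusted p = 0.053). It passed with a variance estimate that ignores the signal level (limma adjusted p = 0.035), a filter at 200 (0.048) or 32 added to each signal (0.046), and with the fluidics round as a block it was 0.39 (limma adjusted p = 0.26).

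Penk encodes proenkephalin, the precursor of the enkephalins, opioid peptides that restrain enteric transmitter release. Penk signals (S49491_s_at) were 521.1, 641 and 522.9 with WPH, 403, 360.5 and 341.2 with SPI, and 278, 234.8 and 248.6 with CAS. No 2 diets overlapped. Penk averaged 561.7 ± 68.7 in WPH, 368.2 ± 31.6 in SPI and 253.8 ± 22.1 in CAS (SD, n = 3 each). It was 2.21-fold higher in WPH than in CAS (log2 change 1.14, limma adjusted p = 5.0e-05), 1.45-fold higher in SPI than in CAS (log2 change 0.54, limma adjusted p = 0.015) and 1.53-fold higher in WPH than in SPI (log2 change 0.61, limma adjusted p = 0.0091). Without SPI replicate 1 the SPI change against CAS was 0.47 and was not called (limma adjusted p = 0.067).

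Cartpt encodes the precursor of cocaine- and amphetamine-regulated transcript peptides, which are present in many myenteric neurons of the rat. Cartpt signals (U10071_at) were 555.4, 555.1 and 479.3 with WPH, 356.2, 351.9 and 272.6 with SPI, and 269.2, 258.3 and 207.5 with CAS. All WPH arrays lay well above the others, and the lowest SPI array was close to the highest CAS array without overlapping it. Cartpt averaged 529.9 ± 43.9 in WPH, 326.9 ± 47.1 in SPI and 245.0 ± 32.9 in CAS (SD, n = 3 each). It was 2.16-fold higher in WPH than in CAS (log2 change 1.12, limma adjusted p = 0.00016) and 1.62-fold higher in WPH than in SPI (log2 change 0.70, limma adjusted p = 0.0084). The SPI change against CAS, 0.41 on the log2 scale, missed the threshold (limma adjusted p = 0.083), and without SPI replicate 3 it was 0.54 and was called (limma adjusted p = 0.044).

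Among the excitatory and sensory peptides, Tac1 encodes substance P and neurokinin A, the tachykinins of excitatory motor neurons and of sensory fibres. It had 2 probe sets that did not give the same picture. The brighter one (M15191_s_at) read 1795.6, 1798.6 and 954.2 with WPH, 1040.2, 1246.2 and 1562.9 with SPI, and 1096.7, 954.3 and 1103.3 with CAS. WPH replicate 3 lay level with the lowest CAS array, and the diets overlapped in each comparison. Its log2 change was 0.47 in WPH against CAS (95% interval -0.03 to 0.98, limma adjusted p = 0.13) and 0.27 in SPI against CAS (limma adjusted p = 0.46). Without WPH replicate 3 the WPH change was 0.78 and was called (limma adjusted p = 0.0035).

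The dimmer Tac1 probe set (X56306_s_at) read 329.8, 490.6 and 417.8 with WPH, 166.2, 254 and 292 with SPI, and 179.6, 175.5 and 169.1 with CAS. All WPH arrays exceeded all others, while the SPI arrays were scattered and 1 of them lay below the CAS range. By this probe set Tac1 was 2.36-fold higher in WPH than in CAS (log2 change 1.22, SE 0.22, limma adjusted p = 0.00088) and 1.74-fold higher in WPH than in SPI (log2 change 0.82, limma adjusted p = 0.021). The change in SPI against CAS was 0.40 (95% interval -0.07 to 0.88, limma adjusted p = 0.23), and without SPI replicate 1 it was 0.64 and was called (limma adjusted p = 0.046). The call for WPH against SPI was lost without WPH replicate 2 (log2 difference 0.68, limma adjusted p = 0.086), WPH replicate 3 (0.80, limma adjusted p = 0.060) or SPI replicate 1 (0.58, limma adjusted p = 0.072). Over the 9 arrays the log2 signals of both probe sets had a Pearson's r of 0.59.

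Calca encodes calcitonin and, by splicing, the sensory neuropeptide alpha-CGRP. Its probe set L00111unknown_S536_at read 60.1, 25.2 and 99.5 with WPH, 62.8, 63.3 and 58.4 with SPI, and 62.5, 68.2 and 44.5 with CAS, and the highest signal of M11597_at was 29.6. No array reached 100, so no fold is given. The related gene Calcb, which encodes beta-CGRP of intrinsic enteric neurons, was bright enough to test (M11596_at). Calcb read 538.9, 666.8 and 589 with WPH, 316.4, 296.1 and 297.4 with SPI, and 190.6, 110.2 and 204.7 with CAS, without overlap between diets. It was 3.55-fold higher in WPH than in CAS (log2 change 1.87, limma adjusted p = 3.4e-05) and 1.80-fold higher in SPI than in CAS (log2 change 0.90, limma adjusted p = 0.011). Calca and Calcb are close in sequence, so the assignment of this signal to 1 of them is uncertain.

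Calb2 encodes calretinin, an EF-hand protein that buffers calcium in cholinergic motor neurons, interneurons and intrinsic sensory neurons of the gut. Calb2 signals (X66974_at) were 2322.2, 2861.7 and 2428.5 with WPH, 1323.4, 1840.5 and 1377 with SPI, and 1106.9, 874.6 and 1045 with CAS. The diets were ordered WPH above SPI above CAS without overlap. Calb2 averaged 2537 ± 286 in WPH, 1514 ± 284 in SPI and 1009 ± 120 in CAS (SD, n = 3 each). It showed the highest fold change of the members' brightest probe sets, 2.52-fold in WPH over CAS (log2 change 1.33, 95% interval 1.01 to 1.65, limma adjusted p = 2.5e-05), and was 1.68-fold higher in WPH than in SPI (log2 change 0.76, limma adjusted p = 0.0039). In SPI it was 1.5-fold higher than in CAS (log2 change 0.58, limma adjusted p = 0.015), a call that was lost without CAS replicate 2 (log2 change 0.48, limma adjusted p = 0.054).

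**Figure D1:**
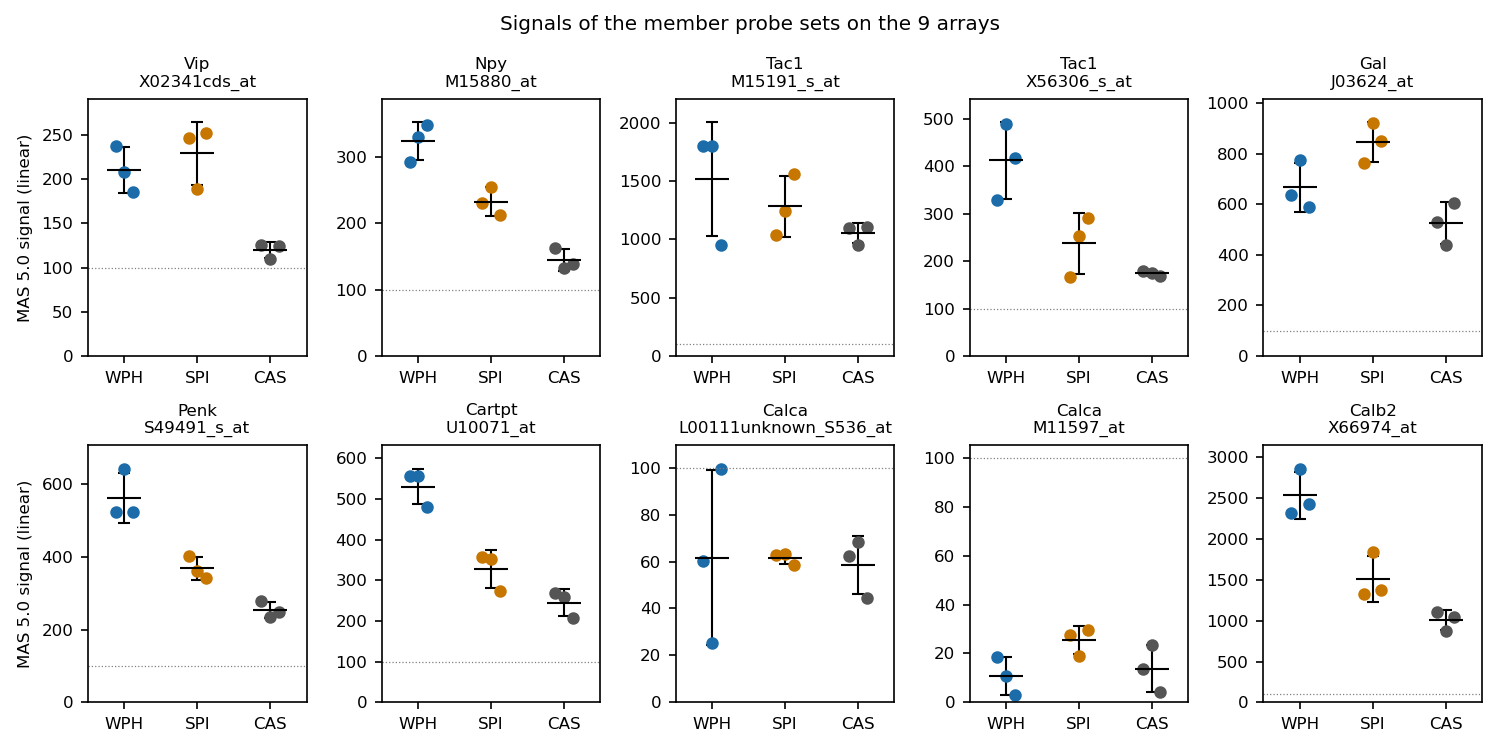
Linear MAS 5.0 signal of each member probe set on every array, with WPH, SPI and CAS from left to right. Coloured points are the 3 arrays of a diet in replicate order, the black bar and whiskers are mean and SD, and the dotted line marks a signal of 100. Npy, Penk, Cartpt and Calb2 step down without overlap in the order WPH, SPI, CAS, Vip is alike in WPH and SPI, Gal is highest in SPI, and both Calca probe sets stay under 100.

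Counted together by the brightest probe set of each gene, 5 of the 7 tested members (Vip, Npy, Penk, Cartpt and Calb2) were higher in WPH than in CAS and none was lower, where 38.8% of all 5606 probe sets were called, 20.9% higher and 17.9% lower. The median log2 change of the 7 members was 1.12, against 0.06 over all probe sets. The arrays of WPH lay wholly above those of CAS for the same 5 genes, as they did for 28% of all probe sets, and they lay wholly below them for 0 members and 22.4% of all probe sets. In SPI against CAS, 5 of 7 (Vip, Npy, Gal, Penk and Calb2) were higher and none was lower, where 22.2% of probe sets were called, 12% higher and 10.2% lower, and the median was 0.58 against -0.01 over all probe sets. Non-overlap with SPI above CAS held for 6 of the 7 genes, the 5 called ones and Cartpt, and for 19.5% of all probe sets, against 19.1% with SPI below CAS. Both of these comparisons use the same CAS arrays, so their results are not independent of each other.

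In WPH against SPI, 3 of the 7 members (Penk, Cartpt and Calb2) were higher and none was lower, where 19.9% of probe sets were called, 9.83% higher and 10.1% lower. The median was 0.48, against 0.08 over all probe sets, and the arrays did not overlap for 4 genes, these 3 and Npy, as for 20.9% of all probe sets, against 14.9% with WPH below SPI. With the fluidics round as a block, the members kept the direction of their changes and 0 of 7 were called in SPI against CAS and 0 of 7 in WPH against SPI. In that fit SPI and CAS are linked only through WPH, because they share no round. The log2 changes of the 5 genes called in SPI against CAS were then 0.84 for Vip (limma adjusted p = 0.25), 0.80 for Npy (0.19), 1.03 for Gal (0.076), 0.89 for Penk (0.081) and 0.91 for Calb2 (0.11). The WPH changes against CAS in that fit come from WPH replicate 2 alone, the only WPH array in the round of the CAS arrays, and were 1.20 for Npy, 1.34 for Penk, 1.19 for Cartpt and 1.51 for Calb2.

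**Figure D2:**
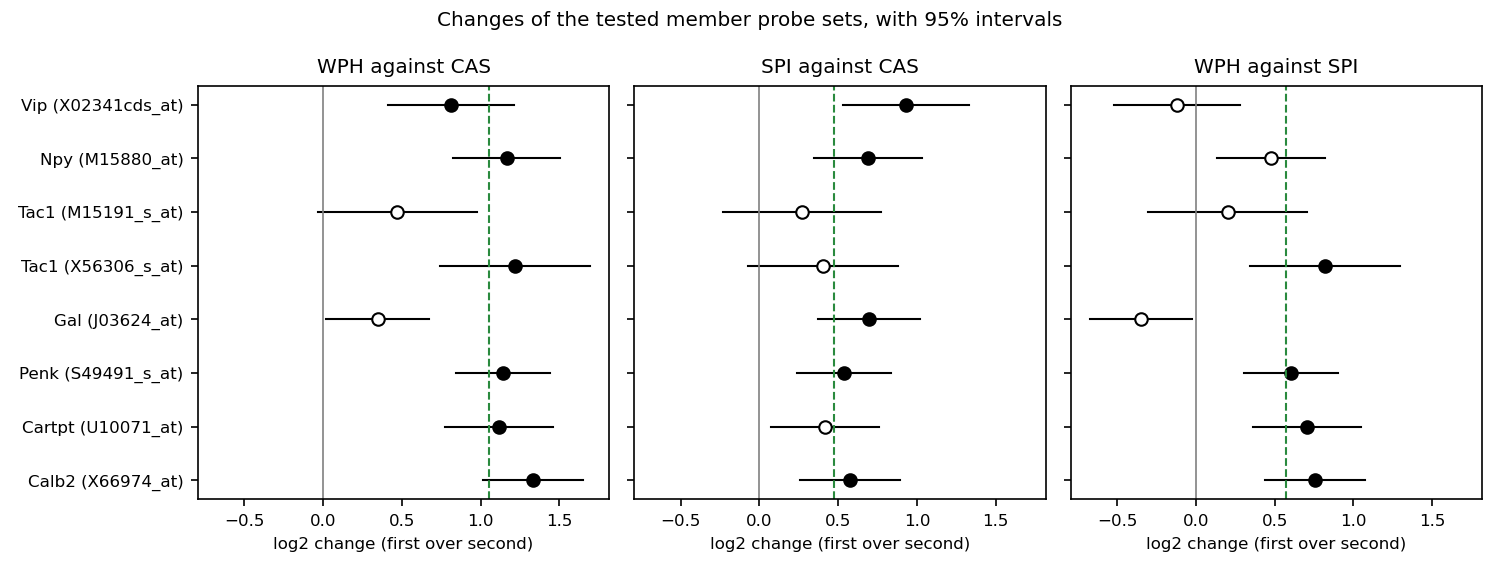
Log2 change of each tested member probe set in the 3 comparisons, first diet over second, with 95% intervals from the limma fit (horizontal lines). Filled points passed an adjusted p under 0.05, and the green dashed line is the median of the 30 tested neuronal genes. In WPH against CAS, Calb2 (1.33) and the dimmer Tac1 probe set (1.22) lie farthest right and Gal (0.35) farthest left, and in WPH against SPI Vip (-0.12) and Gal (-0.35) are the points left of 0.

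The median change of the members lay close to that of general neuronal genes. The neuronal list had a median log2 change of 1.06 in WPH against CAS, 0.48 in SPI against CAS and 0.57 in WPH against SPI (0.44 in SPI against CAS with the 1 dim gene at its bound), with 27, 13 and 21 of 30 genes higher and none lower. In WPH against CAS, Calb2 lay 0.28 above that median, Npy 0.11, Penk 0.09 and Cartpt 0.06 above it, and Vip lay 0.25 and Gal 0.71 below it. Tac1 lay 0.58 below it by the brighter probe set and 0.17 above it by the dimmer one. In SPI against CAS, 5 of the 7 members lay above the neuronal median, Vip by most. Differences between members and this list were not tested. Examples of the list in WPH against CAS were Syn2, a synaptic vesicle protein, with a log2 change of 1.98 (limma adjusted p = 8.7e-07), and Uchl1, a pan-neuronal enzyme, with 1.76 (limma adjusted p = 1.6e-06). Of the list, Cplx2, Dpysl3, Map1b and Nsf were at no more than 100 on every array.

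The smooth muscle list moved with the members as well, with 11 of 15 genes higher in WPH than in CAS (median 0.98) and 13 of 15 higher in SPI than in CAS (median 0.49), none lower in either. Over all probe sets 20.9% were called higher and 17.9% lower in WPH against CAS, and 12% and 10.2% in SPI against CAS. Myh11, the smooth muscle myosin heavy chain, had a log2 change of 1.12 in WPH against CAS. Of 11 tested enteric glia and Schwann cell genes, 4 were higher and 2 lower in WPH against CAS. Among the higher ones were Sox10, at least 1.89-fold (limma adjusted p = 0.0023), and S100b, 2.71-fold (limma adjusted p = 1.5e-05). The 2 lower ones were the myelin genes Pmp22, 1.84-fold (limma adjusted p = 9.7e-06), and Mal, 1.83-fold (limma adjusted p = 0.0042), and both were also lower in SPI than in CAS. Epithelial genes fell, 29 of 30 in WPH against CAS (median -2.13, or -1.86 with dim genes at their bounds) and 21 of 30 in SPI against CAS (median -0.85). Lymphocyte and macrophage genes were higher for 10 of 20 and lower for 2 in WPH against CAS, and adipocyte genes were higher for 6 of 12 and lower for 2. The lists are not separate, since some genes are in several of them. Thy1 is counted in the neuronal and the lymphocyte list, and S100b in the glia list and among the EF-hand genes below.

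Receptors for the member peptides were mostly dim. Of 19 receptor genes with a probe set, 7 were tested, and 11 (Adcyap1r1, Calcr, Galr1, Galr2, Galr3, Grpr, Nmbr, Npy5r, Oprd1, Oprk1 and Tacr3) did not exceed 100 on any array, which leaves the galanin receptors, the delta and kappa opioid receptors and the bombesin receptors without a usable level. Tacr2, the neurokinin A receptor of gut muscle, read 1643.8, 1896.4 and 1696.1 with WPH, 1236.2, 1352.8 and 1203.3 with SPI, and 974.5, 921.2 and 932.5 with CAS. It was 1.85-fold higher in WPH than in CAS (log2 change 0.89, limma adjusted p = 2.3e-05) and 1.34-fold higher in SPI than in CAS (log2 change 0.42, limma adjusted p = 0.0085). Vipr2, a VIP receptor of smooth muscle, averaged 224.6 ± 33.5 in WPH, 118.1 ± 4.72 in SPI and 65.9 ± 15.9 in CAS, where no array reached 100 (SD, n = 3 each). It was therefore at least 2.25-fold higher in WPH (limma adjusted p = 0.00014) and at least 1.18-fold higher in SPI (limma adjusted p = 0.025) than in CAS. Vipr1, the VIP receptor of epithelium, was near the limit of reading, with means of 60.6 in WPH, 31.7 in SPI and 103.0 in CAS, and was called lower in SPI than in CAS, by at least 1.03-fold (limma adjusted p = 0.042). Npy1r, Npy4r, Tacr1 and Calcrl, receptors for NPY peptides, substance P and CGRP, had log2 changes against CAS of 0.005, 0.31, 0.28 and 0.41 in WPH and were not called.

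Of 16 tested genes of the machinery that stores and cuts the precursors, 9 were higher and 2 lower in WPH than in CAS. Over all probe sets 20.9% were called higher and 17.9% lower in that comparison. In SPI against CAS 8 were higher and 2 lower, where 12% and 10.2% of all probe sets were. Scg5, a chaperone of prohormone convertase 2, averaged 569.1 ± 63.7 in WPH, 285.9 ± 27.2 in SPI and 153.9 ± 11.5 in CAS (SD, n = 3 each), a 3.70-fold difference for WPH (limma adjusted p = 1.5e-06). The secretogranins Scg2 and Scg3 had log2 changes of 1.51 and 1.47 in WPH against CAS. The general processing enzymes changed less, with 0.59 for Cpe, the carboxypeptidase that trims precursor fragments (limma adjusted p = 0.00025), and 0.43 for Pam, which amidates VIP, NPY, substance P, CGRP and galanin at the C-terminus (limma adjusted p = 0.00085). Pcsk2, the convertase itself, had a log2 change of -0.09 in WPH against CAS (limma adjusted p = 0.65) and was lower in SPI than in CAS (-0.75, limma adjusted p = 0.0026). The genes of this list that fell in WPH against CAS were Chgb, a granin of endocrine cells and neurons (-1.35, limma adjusted p = 3.2e-06), and Furin, a widely expressed convertase (-0.89, limma adjusted p = 0.00025).

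Of 15 other transmitter genes tested, 5 were higher and 2 lower in WPH against CAS (median 0.18, or 0.15 with dim genes at their bounds). Over all probe sets 20.9% were called higher and 17.9% lower in that comparison. In SPI against CAS 5 were higher and 1 lower (median -0.04), where 12% and 10.2% of all probe sets were. Besides Calcb, the genes higher in WPH were Sst, Nmu, Tac3 and Slc18a3. Slc18a3, the vesicular acetylcholine transporter of cholinergic neurons, averaged 983 in WPH, 638 in SPI and 467 in CAS, with a log2 change of 1.07 in WPH against CAS (limma adjusted p = 9.4e-05). Chat and Nos1, which mark cholinergic and nitrergic neurons, averaged under 100 in every diet and were not tested. The genes lower in WPH were Cck, a hormone of endocrine cells and neurons, at least 1.83-fold (limma adjusted p = 0.00040), and Ddc, which makes dopamine and serotonin (limma adjusted p = 0.020). Ddc read 26.9, 27.9 and 78 with WPH and 54.5, 320.8 and 280.5 with CAS. The 2 diets thus overlapped, and the bound of 2.19-fold rests on a widely spread CAS mean of 218.6 (SD 143.5). The enteroendocrine list, whose cells share several peptides with neurons, had 2 of 8 genes higher and 5 lower in WPH against CAS (median -1.49, or -0.76 with dim genes at their bounds). The 2 higher ones were Sst and Scg5, which are also counted in the lists above, as are Cck and Chgb among the lower ones.

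Peptide-degrading enzymes were mostly not called. Of 8 tested, 2 were lower in WPH than in CAS and none was higher, where 17.9% of all probe sets were called lower. In SPI against CAS 1 of the 8 was lower, where 10.2% of all probe sets were. The median log2 change of the list in WPH against CAS was -0.16. Ace, angiotensin-converting enzyme, which also cleaves substance P, averaged 207.5 ± 33.7 in WPH, 519.3 ± 28.0 in SPI and 650.7 ± 73.0 in CAS (SD, n = 3 each), a log2 change of -1.65 in WPH against CAS (limma adjusted p = 4.3e-06). Dpp4, which trims NPY, had a change of -0.86 in WPH (limma adjusted p = 0.0020) and of -0.77 in SPI (limma adjusted p = 0.0078). Both enzymes are abundant in the intestinal brush border.

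Beside calretinin, 14 other EF-hand genes were tested, of which 7 were higher and 2 lower in WPH against CAS (median 0.46, or 0.16 with the 2 genes under 100 in both diets at no change). Over all probe sets 20.9% were called higher and 17.9% lower. Calb1, calbindin, another calcium buffer of enteric neurons, averaged 228.3 in WPH, 153.0 in SPI and 114.7 in CAS, with a log2 change of 1.01 in WPH against CAS (limma adjusted p = 0.0023) and of 0.44 in SPI against CAS (limma adjusted p = 0.16). Sri, sorcin, was lower in WPH (-1.17, limma adjusted p = 9.4e-06). S100a9, a neutrophil protein, averaged 71.7 in WPH, 782.7 in SPI and 27.7 in CAS. It is counted among the 7 higher genes, although every WPH and CAS array was under 100.

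**Figure D3:**
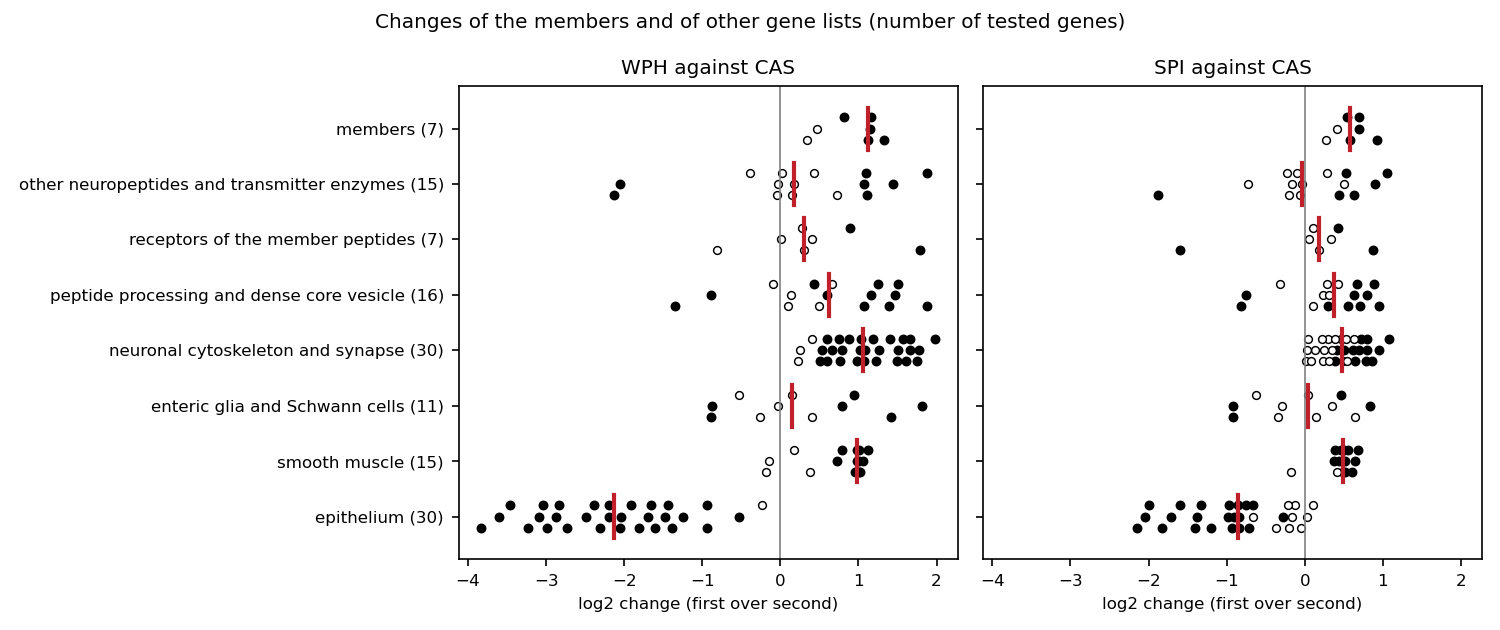
Log2 change in WPH against CAS (left) and SPI against CAS (right) of each tested gene in 8 lists, first diet over second, with the number of tested genes in brackets. Filled points passed an adjusted p under 0.05, open points did not, red bars are medians, and the vertical spread within a list only separates points. The members (medians 1.12 and 0.58), the neuronal list (1.06 and 0.48) and smooth muscle (0.98 and 0.49) lie right of 0, and epithelium (-2.13 and -0.85) lies left of it.

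The members fell into patterns over the 9 arrays, given here as descriptions because all points share the same 3 pools. Npy, Penk, Cartpt and Calb2 were most alike, with Pearson's r of log2 signals between 0.92 and 0.96 for their 6 pairs. Vip and Gal, whose mean signals were higher in SPI than in WPH, had an r of 0.77 with each other, but Vip was about as close to Npy (0.75) and Penk (0.73). Gal had an r between 0.28 and 0.52 with Npy, Penk, Cartpt and Calb2, lowest with Cartpt. Of 3602 probe sets with 1 symbol and a mean of at least 200 in a diet, those nearest to Penk were Nsg1, a neuronal endosome protein and Rabep1 (r = 0.99 for each) and Tacr2 (r = 0.98). Nearest to Cartpt were Ndrg2, Crabp1 and the neuronal microtubule protein Map2 (r = 0.98 for each), and nearest to Npy were P4ha1, Sncg and Myh11 (r = 0.99 for each). Nearest to Calb2 were Rps29, S100a1 and Mta1 (r = 0.99 for each). Vip was nearest to Igf2, Sparc and Mmp14 (r = 0.97 for each), the last 2 of which act in connective tissue matrix. Gal was nearest to the lipid carrier Apoe, the clock-controlled factor Dbp and Gstp1 (r = 0.94, 0.94 and 0.92), and the brighter Tac1 probe set had no neighbour above 0.89.

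**Figure D4:**
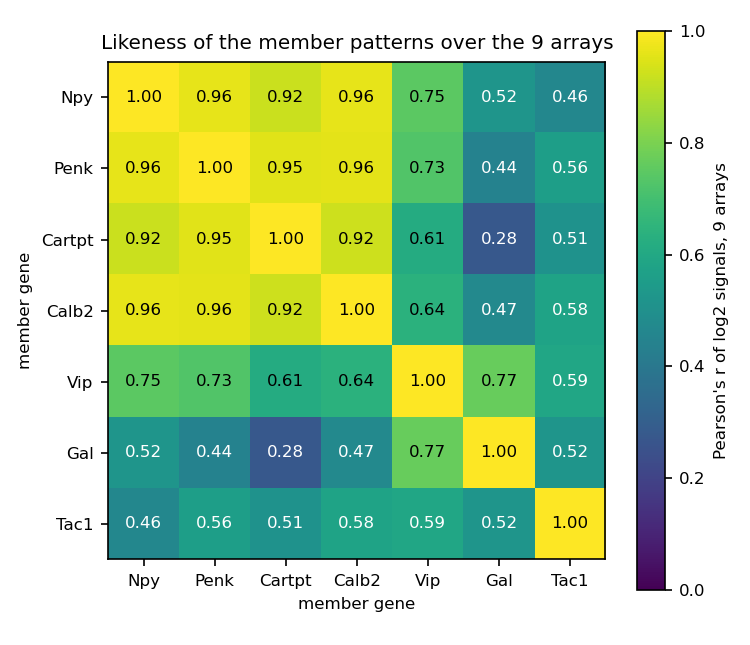
Pearson's r between the log2 signals of 7 members over the 9 arrays, each by its brightest probe set, shown by colour and printed in each cell. The block of Npy, Penk, Cartpt and Calb2 at the upper left holds values of 0.92 and above, and Gal with Cartpt has the lowest value, 0.28.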

How the data were processed

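RNA of 3 diet pools was measured on 9 Affymetrix rat arrays, 3 per diet, and this number limits precision. The deposited values are linear signals that the authors obtained with MAS 5.0 and scaled to 500 per array. The deposited settings files, of the unit other, were read only for the time stamps from which the fluidics rounds were inferred. A new round began after a long gap between stamps. The median signal was 149 to 165 per array. Between 58.6 and 60.2% of probe sets per array read 100 or more. Signals under 0.1 were set to 0.1 and changed to log2. Of 8799 probe sets, 59 controls were left out. A linear model of the 3 diets was fitted with limma 3.58.1 (R 4.3.3) with a variance trend over 5606 probe sets. On simulated data for WPH against CAS over 5606 probe sets, 30% of 1.5-fold, 68% of 2-fold, 70% of 2.5-fold and 86% of 4-fold changes were recovered, with 3 calls among 5406 unchanged probe sets. Only 50 probe sets were changed at each size, whereas 38.8% were called in the real comparison. These rates therefore do not give the power of the reported fit. The simulated spread was technical, so false calls between pools of rats were not covered. Other steps used Python 3.11.15, pandas 2.3.3, numpy 2.4.6, scipy 1.17.1 and, for plots, matplotlib 3.10.9.

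The annotation gave 1 symbol to 7018 probe sets, several to 308 and none to 1473. A gene's brightest probe set stands for it in counts. Fold changes are ratios of mean signals. A diet with no array at 100 or above was set to 100 per array, and the fold is then a lower bound. Named were all members, up to 4 called genes per list, and the 3 nearest probe sets of each member. Pmp22, Pcsk2, Cpe, Pam, Furin, Calb1, Nmu, Tac3, Slc18a3, Chat, Nos1 and the receptors other than Tacr2 and Vipr2 were named after their values were seen. The members and lists were chosen with earlier results of these data known. Alternatives covered the floor, pseudocount, filter, normalization, variance trend, probe set choice, replicate number, fluidics round, the methods' t-test, a 2-fold rule on signal ratios in all array pairs, and each array left out.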

Additional observations from a re-analysis of the deposited data

Results flagged for a closer look

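The effect of WPH and the effect of SPI, both against CAS, differed by the direct test of WPH against SPI for 4 of the 8 tested member probe sets. These were Tac1 X56306_s_at, Penk, Cartpt and Calb2. Over all 5606 probe sets 9.83% were called higher in that comparison. For the dimmer Tac1 probe set the difference was 0.82 on the log2 scale (limma adjusted p = 0.021), but the brighter one gave 0.20 (limma adjusted p = 0.59). For Penk it was 0.61 (limma adjusted p = 0.0091), for Cartpt 0.70 (limma adjusted p = 0.0084) and for Calb2 0.76 (limma adjusted p = 0.0039). In each of these 4 probe sets all 3 WPH arrays lay above all 3 SPI arrays, as for 20.9% of all probe sets. The same arrays gave the calls, so this adds no separate evidence. With the fluidics round as a block the differences were 0.85 for Tac1 X56306_s_at (limma adjusted p = 0.053), 0.45 for Penk (limma adjusted p = 0.11), 0.54 for Cartpt (limma adjusted p = 0.099) and 0.61 for Calb2 (limma adjusted p = 0.066).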

How the results depend on the processing

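The count of members called higher in WPH against CAS, 5 of 7 as reported, was 1 when a ratio of signals of at least 2 was required in 9 of 9 array pairs. This is not the study's own filter, which also used comparison and detection calls not analysed here. It called 398 probe sets (106 higher and 292 lower) in place of 2175 (1174 and 1001). With the fluidics round as a block, WPH against CAS rests on WPH replicate 2 alone, so no counts are given for it. The median log2 change of all probe sets was then 0.03, against 0.06 as reported. In SPI against CAS, 5 members and 1243 probe sets (673 higher and 570 lower) became 0 and 252 (100 and 152) with the fluidics round as a block, 3 and 798 with the methods' t-test after Benjamini-Hochberg adjustment, and 0 and 176 (69 and 107) under the 2-fold rule. In WPH against SPI, 3 members and 1116 probe sets (551 higher and 565 lower) became 0 and 560 (208 and 352) with that block, 0 and 536 with the t-test, 0 and 147 (13 and 134) under the 2-fold rule, and 0 and 315 (94 and 221) within 1 fluidics round, which was chosen after seeing the data. The cause of these shifts was not tested, and the fit within a round also used fewer arrays. Leaving out 1 array at a time gave 5 to 6 members and 1850 to 2218 probe sets in WPH against CAS, 4 to 6 and 898 to 1278 in SPI against CAS, and 3 to 3 and 789 to 1116 in WPH against SPI.

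No member changed direction under any alternative. The replicate numbers did not pair the arrays, since same-numbered arrays of different diets deviated with r between -0.28 and 0.24, and the replicate block gave 5, 5 and 3 members and 2012, 1030 and 890 probe sets in the comparisons in the order above. Median centring moved the median of all probe sets in WPH against CAS to 0.10, against 0.06 as reported, and changed no member's call.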
